A study of Mus musculus with 4 samples.

Results

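The genes described here are 41 genes of the hypoxia response and of glycolysis, listed by name: targets of the hypoxia-inducible factors (HIFs) together with the enzymes and transporters that carry glucose to lactate. All 41 had a row among the 16846 genes of the count table, and 39 of them were among the 12115 genes with enough counts to be tested. The members were measured in HT22 cells, an immortalised line derived from mouse hippocampal neurons, in 4 groups: cells overexpressing the long noncoding RNA Ntoco (the label has Lv, while the vector's columns are named pcDNA, so the means of delivery is uncertain), cells with the empty vector, cells with a short hairpin RNA (shRNA) against Ntoco, and cells with a control shRNA. The labels give 1 sample per group, whereas each table has 2 libraries per group and 8 in all, and neither says whether the libraries came from separate cultures, so p-values cover only library-to-library spread, which may be technical. No treatment, oxygen level or time is named for any group. The series title describes Ntoco as induced by hypoxia-ischemia in traumatic brain injury, and the comparisons ask what differs when Ntoco is raised or lowered.

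In oxygenated cells, prolyl hydroxylases of the Egln family mark the HIF alpha subunits for destruction through the Vhl ubiquitin ligase. When oxygen is short the subunits persist, pair with Arnt and bind a short DNA element, the hypoxia response element, next to genes for glucose uptake, glycolysis, lactate export, angiogenesis and removal of mitochondria. Neurons rely largely on oxidative metabolism, whereas cultured lines draw more on glycolysis.

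Total counts were 18452588 to 19859041 per library. The table had 0 rows named Ntoco, so the target itself could not be read and the group labels are unchecked. The median gene differed between the libraries of a group by 0.24 to 0.38 on the log2 scale, and only overexpression library 1 and control shRNA library 2 lay closest to their own partner. Of the 9 neuronal markers with a row, 8 (Tubb3, Map2, Syt1, Nefl, Nefh, Gap43, Stmn2 and Slc17a7) stayed at or below 0.296 CPM (counts relative to library size) in every library. The ninth was the member Eno2. Markers of fibroblasts, among them the collagen genes Col1a1 and Col1a2 and fibronectin, summed to 2952 and 2805 CPM with overexpression, 2498 and 3333 CPM with the vector, 6320 and 2218 CPM with the Ntoco shRNA, and 4309 and 4538 CPM with the control shRNA. Of the 7 such markers with a row, 5 were tested, and Lum was at 0 and Dcn near 0. The astrocyte markers, 6 of the 7 with a row tested, summed to 130.2 and 128 CPM with overexpression, 60.9 and 134 CPM with the vector, 137 and 61.8 CPM with the Ntoco shRNA, and 146 and 164 CPM with the control shRNA. Sums over the libraries ranged from 193 to 445 CPM for oligodendrocyte lineage markers and from 111 to 263 CPM for markers of endothelium and pericytes. Those of microglia and macrophages ranged from 11.5 to 19.0 CPM. A single marker reached 404 CPM in the oligodendrocyte list and 256 CPM in that of endothelium and pericytes, so 1 gene can make up most of a sum. In these lists 2 of 6 and 4 of 7 markers with a row never exceeded 1 CPM. Pdgfra was in both the oligodendrocyte and the fibroblast list. The sums therefore do not measure a lineage. The part of the differences between these sums in the results was not tested. In bulk RNA, fewer cells that express a gene and less of its RNA per cell cannot be told apart.

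The DNA element was read from promoter sequences. Many of the members are known HIF targets, so the shares below describe the list and are not a test of it. Promoters of RefSeq genes (GRCm38.p6, 250 bases before to 50 bases after the start) were found for 34 of the 41 members. They were searched on both strands for ACGTG and GCGTG, the core letters of the hypoxia response element. At least 1 match lay in a promoter of 31 of the 34 members (91.2%), against 46.7% of all genes with a promoter and 67.2% of the genes tested. By promoter the shares were 78.2% of 55 for members, 61.1% of 12382 for genes tested and 43.8% of 32851 overall. The letters ACGTG occurred in 50.9% of member promoters, 25.4% of those of genes tested and 19.6% of all, and GCGTG in 58.2%, 49.6% and 32.4%. CACGTG, the E-box, which contains ACGTG on both strands, occurred in 9.09%, 9.85% and 7.15%. Base composition moved in the same direction, with a median GC content of 63.3%, 60.3% and 52.7%, and its part in these shares was not tested. Members without either motif in these windows were Eno2, Gpi1 and Tpi1.

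The promoters below are printed because their genes carry the contrasts described below, with matches in capitals (ACGTG or GCGTG on the printed strand, CACGT or CACGC where the match is on the other strand). Bnip3, Slc16a3, Adm and Ldha had some of the largest positive log2 ratios of overexpression to vector among the members, that of Slc16a3 from 1 library, and Hk2 had a negative one.
Bnip3, chr7:138909457-138909756, minus strand: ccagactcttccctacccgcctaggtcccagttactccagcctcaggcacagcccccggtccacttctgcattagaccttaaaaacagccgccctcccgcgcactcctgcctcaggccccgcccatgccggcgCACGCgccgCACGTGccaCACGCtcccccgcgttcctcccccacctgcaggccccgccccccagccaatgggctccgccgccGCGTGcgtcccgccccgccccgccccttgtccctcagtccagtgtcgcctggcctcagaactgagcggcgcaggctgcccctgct
Slc16a3, chr11:120948817-120949116, plus strand: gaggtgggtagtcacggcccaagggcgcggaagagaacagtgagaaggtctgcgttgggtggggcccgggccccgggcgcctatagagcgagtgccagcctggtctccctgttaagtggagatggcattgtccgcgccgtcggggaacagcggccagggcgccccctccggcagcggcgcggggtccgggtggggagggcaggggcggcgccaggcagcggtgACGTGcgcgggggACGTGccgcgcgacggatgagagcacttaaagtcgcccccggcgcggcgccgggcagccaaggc
Adm, chr7:110627407-110627706, plus strand: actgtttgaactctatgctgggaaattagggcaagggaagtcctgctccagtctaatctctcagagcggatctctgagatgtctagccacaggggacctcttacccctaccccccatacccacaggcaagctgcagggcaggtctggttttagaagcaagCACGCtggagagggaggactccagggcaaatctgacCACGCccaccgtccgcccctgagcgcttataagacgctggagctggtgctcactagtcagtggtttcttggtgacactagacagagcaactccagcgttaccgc
Ldha, chr7:46845554-46845853, plus strand: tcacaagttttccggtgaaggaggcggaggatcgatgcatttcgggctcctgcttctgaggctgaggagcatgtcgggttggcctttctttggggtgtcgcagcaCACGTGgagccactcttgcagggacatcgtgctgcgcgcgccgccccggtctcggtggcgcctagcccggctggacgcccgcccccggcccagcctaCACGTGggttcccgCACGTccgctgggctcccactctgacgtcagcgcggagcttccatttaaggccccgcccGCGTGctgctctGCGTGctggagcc
Hk2, chr6:82774405-82774704, minus strand: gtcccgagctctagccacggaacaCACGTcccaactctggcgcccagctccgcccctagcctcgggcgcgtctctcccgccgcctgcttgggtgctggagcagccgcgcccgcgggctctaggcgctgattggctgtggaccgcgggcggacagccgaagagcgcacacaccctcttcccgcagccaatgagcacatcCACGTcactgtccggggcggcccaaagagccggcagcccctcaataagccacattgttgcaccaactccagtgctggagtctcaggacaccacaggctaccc
The printed stretch of Ldha held 7 matches at 5 separate places, that of Bnip3 5 matches at 4 places, and those of Slc16a3, Adm and Hk2 held 2 each. A match describes letters in a window, not a bound site.

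With Ntoco overexpressed, the genes of the hypoxia response and glycolysis were on balance higher than with the empty vector, and library 1 carried most of the difference. Of the 39 members tested, 33 had a positive log2 ratio of overexpression to vector (84.6%, against 49.5% of all genes tested). Their median log2 ratio was 0.69, against -0.01 over all genes. The members were chosen with earlier results of these data known, so these values describe the list and do not test it. In 22 members both overexpression libraries lay above both vector libraries (56.4%, against 24.1% of all genes), and in 3 members, Hk2, Pfkfb3 and Vegfa, both lay below (7.69%, against 23.1%). By edgeR's quasi-likelihood test with Benjamini-Hochberg adjustment over all genes, 0 members and 0 of 12115 genes (0.00%) passed an adjusted p of 0.05, and the lowest adjusted p was 0.598. At an unadjusted p under 0.05, 10 members were higher and 0 lower, against 3.53% of all genes higher and 4.09% lower. DESeq2 called 0 members and 0.00825% of genes.

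Overexpression library 1 had the highest value of the 8 libraries in 29 of the 39 members, where over all genes it was highest in 13.5%. Set against the control shRNA mean, members had medians of 0.85 (overexpression library 1) and 0.07 (library 2), against -0.19 and -0.05 in the vector libraries. Library 1 exceeded library 2 in 37 of the 39 members, and in 12 members the libraries of the group were over 1 log2 unit apart. Without overexpression library 1 the members' median log2 ratio was 0.19. Without library 2 it was 0.98. The size of the members' difference thus depended on library 1.

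**Figure D1:**
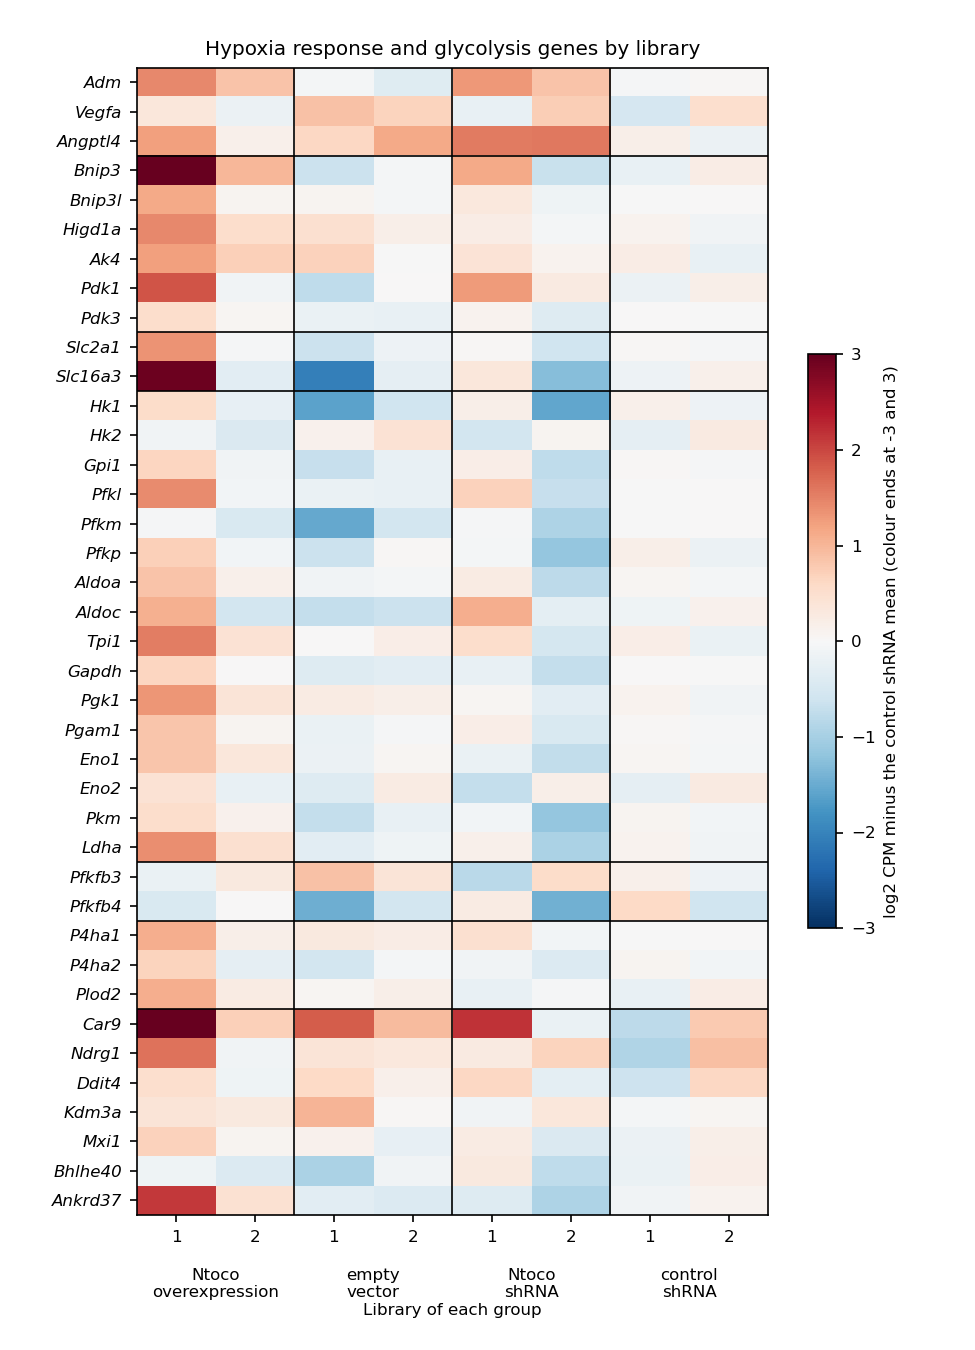
Log2 CPM of each tested member relative to the mean of the control shRNA libraries (colour scale), by library (columns) and by role (rows, blocks separated by lines). Overexpression library 1 is the reddest column, with 29 of 39 members at their highest value, and Ntoco shRNA library 2 is the bluest, with 17 members at their lowest.

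With the Ntoco shRNA the members showed no common direction. Of the 39 members, 17 had a positive and 22 a negative log2 ratio of Ntoco shRNA to control shRNA (43.6% positive, against 50.6% of all genes), with a median of -0.11, against 0.01 over all genes. Both Ntoco shRNA libraries lay above both control libraries in 3 members, Adm, Angptl4 and Pdk1 (15.1% of all genes did so), and below both in 6, Ankrd37, Pfkm, Gapdh, Eno1, Pkm and P4ha2 (14.1% of all genes). EdgeR called 0 members and 0.00% of genes (lowest adjusted p among members 0.992). At an unadjusted p under 0.05 there were 2 members higher and 0 lower, beside 1.51% and 1.61% of genes. DESeq2 called 1 member, Angptl4, and 0.124% of genes.

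The 2 Ntoco shRNA libraries stood on opposite sides of their controls. The members' median was 0.21 in library 1 and -0.40 in library 2, relative to the control shRNA mean, and in 15 members the libraries were over 1 log2 unit apart. Library 1 had the second highest value of all libraries in 18 members and library 2 the lowest in 17. Without library 1 the median log2 ratio was -0.43, and without library 2 it was 0.16, so that its sign followed the library left in.

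The difference between the effects of overexpression and of knockdown was tested as a contrast of its own. It was positive in 32 of the 39 members (82.1%, against 48.4% of all genes), with a median of 0.71 against -0.02 over all genes. No member passed (edgeR, 0.00% of genes, lowest adjusted p 0.65), and DESeq2 called 0 members and 0.116% of genes. At an unadjusted p under 0.05, 6 members were higher (Ankrd37, Slc2a1, Gapdh, Eno1, Pkm and Ldha) and 1 lower (Angptl4), beside 3.57% and 3.35% of genes. Without overexpression library 1 the median was 0.24, without overexpression library 2 it was 1.11, and without Ntoco shRNA library 1 it was 1.09.

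The empty vector and the control shRNA themselves differed, and the overexpression ratio shares the vector libraries with that comparison. In vector against control shRNA, 15 members had a positive and 24 a negative log2 ratio (38.5% positive, against 49.7% of all genes). Their median log2 ratio was -0.11, against -0.003 over all genes. Both vector libraries were above both control shRNA libraries in 7 members (17.9%, against 24.6% of all genes) and below in 14 (35.9%, against 26.5%). EdgeR called 0 members and 0.00% of genes, and DESeq2 0 members and 2.37% of genes. At an unadjusted p under 0.05, Angptl4 was higher (6.45% of genes were) and Pfkm lower (6.10% of genes were).

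**Figure D2:**
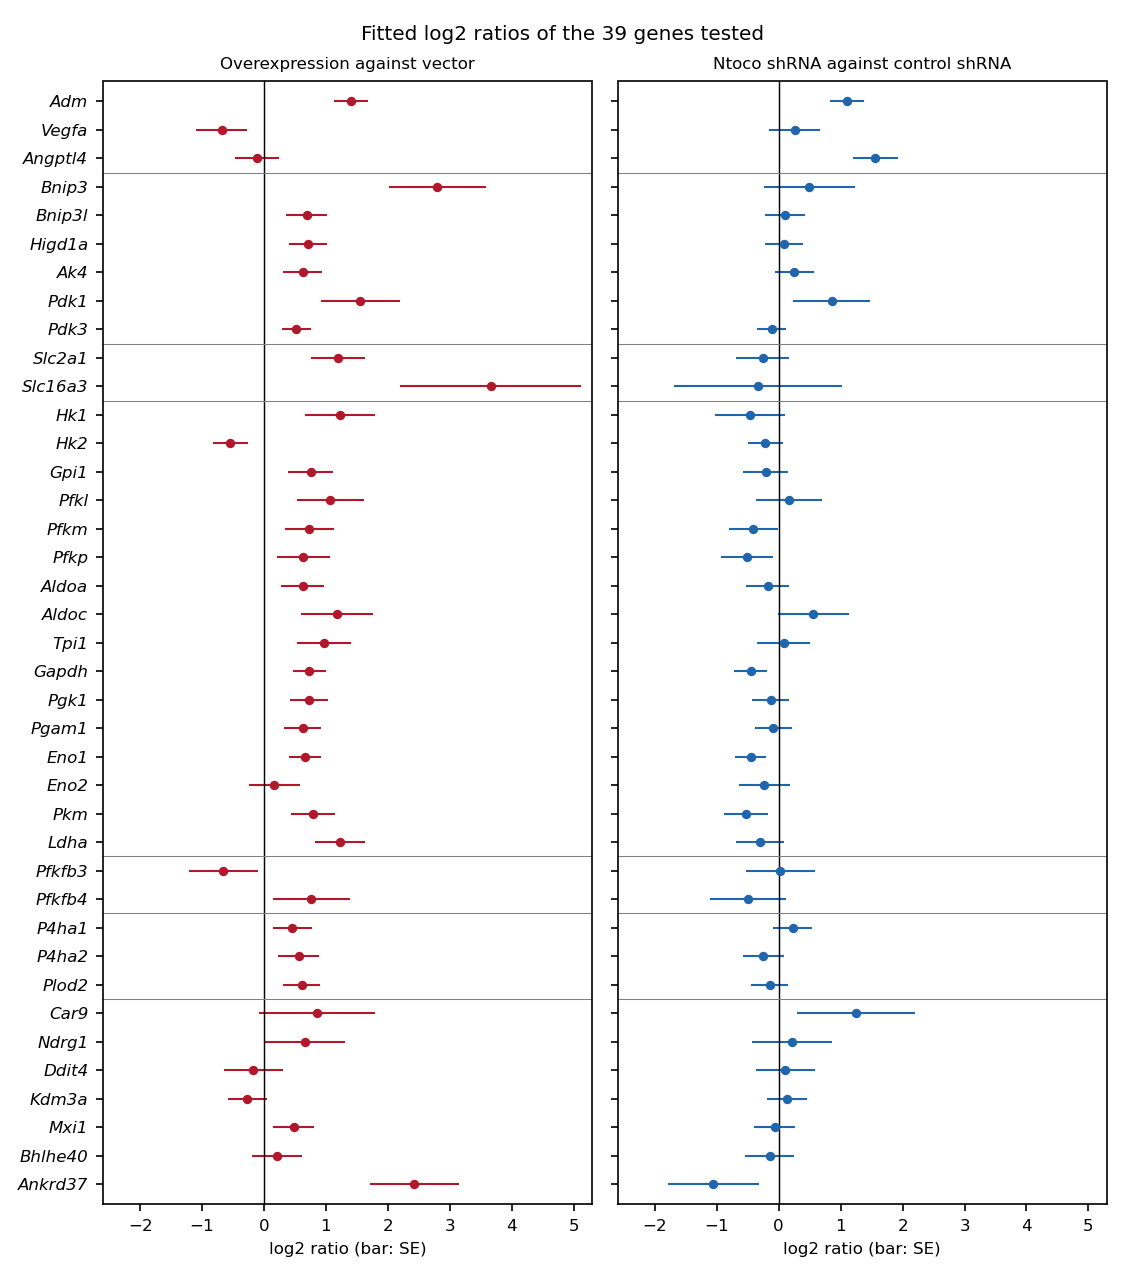
Fitted log2 ratio of each tested member (points, bars: SE of the edgeR model) for overexpression against vector (left) and Ntoco shRNA against control shRNA (right), in blocks by role. Points lie right of 0 in 33 of 39 members on the left and in 17 of 39 on the right.

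Among the secreted factors, Adm had higher values in both comparisons, Angptl4 had higher values with the Ntoco shRNA, and Vegfa had lower values with overexpression. Adm encodes adrenomedullin, a vasodilator peptide (Entrez 11535, GRCm38 chr7:110627657-110629820). It had 65.5 and 43.3 CPM in the overexpression libraries, against 22.7 and 18.4 CPM in the vector libraries. It had 59.5 and 43.1 CPM in the Ntoco shRNA libraries, against 23.3 and 24.4 CPM in the control shRNA libraries. All 4 libraries labelled as overexpression or Ntoco shRNA thus held more Adm than all 4 controls. The log2 ratio was 1.40 (SE 0.28) for overexpression and 1.11 (SE 0.28) for the shRNA, with edgeR adjusted p of 0.598 and 0.992 and DESeq2 adjusted p of 0.065 and 0.17. The difference between these effects was 0.29 (SE 0.39).

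Angptl4 encodes a secreted inhibitor of lipoprotein lipase (Entrez 57875, chr17:33774900-33781575). It had 282 and 285 CPM in the Ntoco shRNA libraries, against 107 and 84.7 CPM in the control shRNA libraries, a 2.95-fold difference with no overlap. The log2 ratio was 1.56 (SE 0.36), with an adjusted p of 0.992 in edgeR and of 0.0261 in DESeq2. It had 225 and 105 CPM in the overexpression libraries, against 148 and 210.0 CPM in the vector libraries, which overlapped (log2 ratio -0.12, SE 0.35). The vector libraries were also above the control shRNA libraries, by 0.90 (SE 0.35). The difference between the overexpression and shRNA effects was -1.68 (SE 0.50, edgeR adjusted p 0.65).

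Vegfa, the main growth factor of blood vessels (Entrez 22339, chr17:46016993-46032377), had 359.6 and 249 CPM in the overexpression libraries, against 522 and 453 CPM in the vector libraries. Both were lower, with a log2 ratio of -0.68 (SE 0.41). In the Ntoco shRNA libraries it had 244 and 475 CPM, against 200.2 and 401 CPM in the control libraries, an overlap with a wide spread within each group. The vector libraries were above both control shRNA libraries (log2 ratio 0.70, SE 0.41). Both overexpression libraries lay within the control shRNA range. Vegfa and Adm, both textbook HIF targets, were on opposite sides of the vector.

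The genes of mitophagy and mitochondrial adaptation had higher values with overexpression. All 6 had a positive log2 ratio (median 0.70), and 4 had both libraries higher (66.7%, against 24.1% of all genes). At an unadjusted p under 0.05, 2 (Bnip3 and Pdk1) were higher (33.3%, against 3.53% of all genes), and 0 passed the test. Bnip3, an outer membrane receptor that directs mitochondria to autophagy (Entrez 12176, chr7:138890836-138909506), had 490.3 and 108 CPM in the overexpression libraries, against 34.6 and 51.5 CPM in the vector libraries. Both were higher, library 1 by far the most, and the log2 ratio was 2.80 (SE 0.78, edgeR adjusted p 0.598, DESeq2 adjusted p 0.0659). It was 1.33 without overexpression library 1. In the Ntoco shRNA libraries Bnip3 had 120.0 and 33.7 CPM, against 46.6 and 62.7 CPM in the control libraries, 1 library above and 1 below both controls.

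Its relative Bnip3l, which also serves in mitophagy, had 327 and 157 CPM in the overexpression libraries, against 158 and 143 CPM in the vector libraries. The groups overlapped (log2 ratio 0.69, SE 0.33). By deposited FPKM, which is scaled by gene length and allows genes to be set side by side, Bnip3 made up 77.7% and 61.6% of the sum of both genes in the overexpression libraries, against 33.8% and 45.6% in the vector libraries. It made up 60.4% and 36.8% in the Ntoco shRNA libraries, against 42.3% and 49.5% in the control libraries. The larger partner was thus Bnip3 in both overexpression libraries and Bnip3l in both vector libraries.

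Pdk1 encodes a kinase that switches off pyruvate dehydrogenase and so holds pyruvate back from mitochondria (Entrez 228026, chr2:71873215-71903858). It had 97.6 and 24.3 CPM in the overexpression libraries, against 15.1 and 26.3 CPM in the vector libraries. Only library 1 exceeded the vector (log2 ratio 1.56, SE 0.63, and 0.23 without that library). In the Ntoco shRNA libraries Pdk1 had 64.1 and 31.5 CPM, against 23.0 and 29.8 CPM in the control libraries, both higher (log2 ratio 0.85, SE 0.62). Its relative Pdk3 had 109 and 78.5 CPM in the overexpression libraries, against 65.8 and 64.8 CPM in the vector libraries, without overlap (log2 ratio 0.52, SE 0.24).

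Higd1a, a small protein of the mitochondrial inner membrane, had 147 and 77.7 CPM in the overexpression libraries, against 76.2 and 61.3 CPM in the vector libraries (log2 ratio 0.71, SE 0.31). The adenylate kinase Ak4 had 56.3 and 39.6 CPM in the overexpression libraries, against 38.6 and 23.6 CPM in the vector libraries (log2 ratio 0.62, SE 0.32). Library 2 lay just above the higher vector library for both genes. With the Ntoco shRNA, 5 of the 6 genes of this group had a positive log2 ratio, with a median of 0.18.

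Glucose uptake and lactate export had 3 members, of which Slc2a1 and Slc16a3 were tested. Slc2a1, the glucose transporter GLUT1 (Entrez 20525, chr4:119108745-119137330), had 284 and 109 CPM in the overexpression libraries, against 70.8 and 100.3 CPM in the vector libraries. Both were higher, the second by little (log2 ratio 1.20, SE 0.44, adjusted p 0.598). In the Ntoco shRNA libraries it had 113 and 72.7 CPM, against 114 and 108 CPM in the control libraries. The neuronal glucose transporter Slc2a3 (GLUT3) was nearly absent, with at most 3 counts in a library, and was not tested.

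Slc16a3 encodes MCT4, which exports lactate (Entrez 80879, chr11:120948484-120959000). It was detected with few reads except in 1 library, with 334 and 24 counts in the overexpression libraries, against 1 and 27 counts in the vector libraries. These were 17.2 and 1.32 CPM, against 0.0535 and 1.39 CPM. The groups overlapped, and the log2 ratio of 3.66 (SE 1.46) was 0.86 without overexpression library 1 and 7.27 without vector library 2. In the Ntoco shRNA libraries Slc16a3 had 2.41 and 0.444 CPM, against 1.57 and 2.02 CPM in the control libraries.

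**Figure D3:**
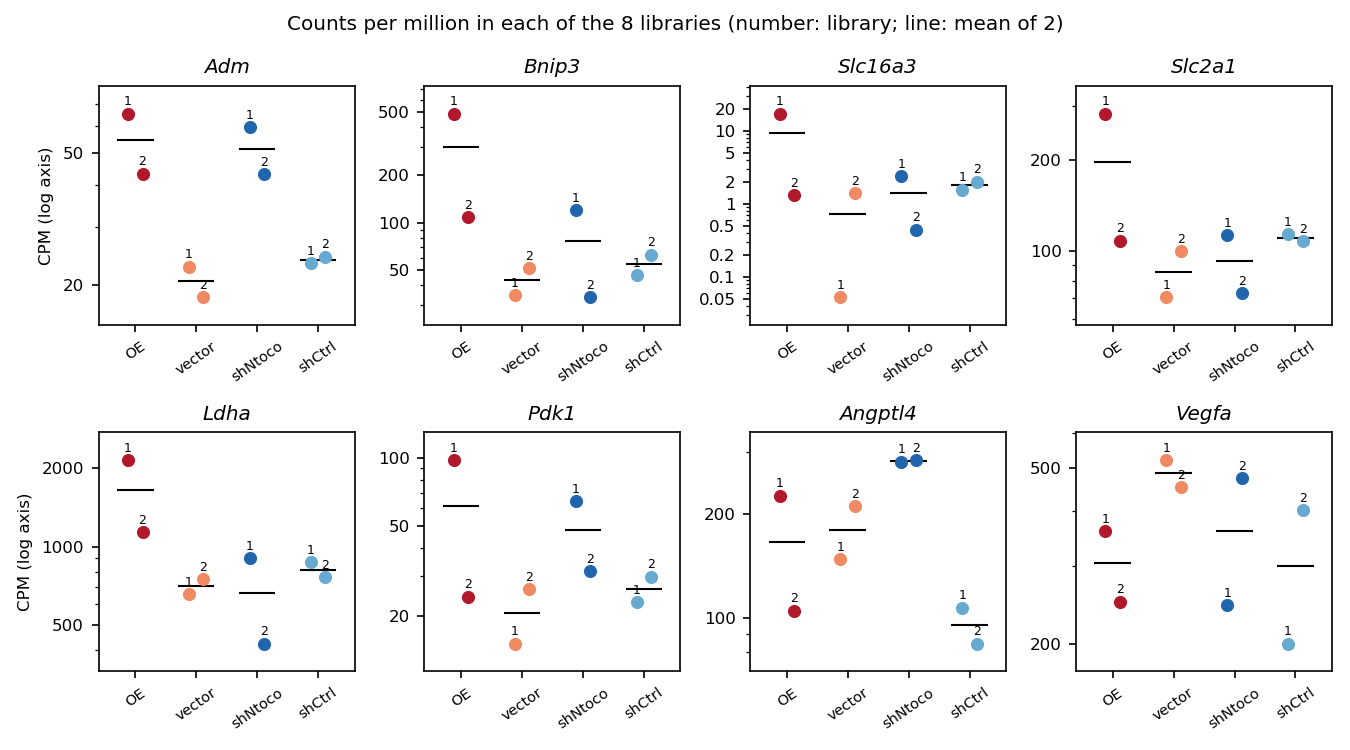
CPM on a log axis of 8 members in each library (points, numbered by library) with the mean of the 2 libraries (lines), in Ntoco overexpression (OE), empty vector, Ntoco shRNA (shNtoco) and control shRNA (shCtrl) cells. Adm is separated from its control in both comparisons. Overexpression library 1 stands above all other libraries for every member shown except Angptl4 and Vegfa.

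The glycolytic enzymes formed the largest role group, and 15 of the 16 had a positive log2 ratio with overexpression, with a median of 0.73. Both overexpression libraries were above both vector libraries in 13 of them (81.2%, against 24.1% of all genes) and below in 1, Hk2 (6.25%, against 23.1%). Gapdh, Pgk1, Eno1 and Ldha were higher at an unadjusted p under 0.05 (25%, against 3.53% of all genes), and 0 passed the test. With the Ntoco shRNA 13 of the 16 had a negative log2 ratio, with a median of -0.22, and 4 (Pfkm, Gapdh, Eno1 and Pkm) had both libraries below both controls (25%, against 14.1% of all genes).

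The summed deposited FPKM of the 16 enzymes was 5434 and 3250 in the overexpression libraries, against 2325 and 2753 in the vector libraries. It was 3062 and 1797 in the Ntoco shRNA libraries, against 2943 and 2734 in the control shRNA libraries. Both overexpression libraries exceeded all other libraries in this sum, and Ntoco shRNA library 2 was the lowest. The vector libraries were among the lower ones, and in 9 of the 16 enzymes both lay below both control shRNA libraries (56.2%, against 26.5% of all genes).

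At the entry of the pathway, the hexokinases differed in direction. Hk1, the ubiquitous hexokinase (Entrez 15275, chr10:62268855-62379920), had 196 and 112 CPM in the overexpression libraries, against 43.9 and 87.8 CPM in the vector libraries (log2 ratio 1.23, SE 0.57). Hk2, the inducible hexokinase and a known HIF target (Entrez 15277, chr6:82725025-82774454), had 109 and 87.4 CPM in the overexpression libraries, against 128 and 159 CPM in the vector libraries (log2 ratio -0.54, SE 0.29). Neither gene overlapped between overexpression and vector, in opposite directions. The control shRNA libraries had 150 and 119 CPM of Hk1, above both vector libraries and above overexpression library 2. The log2 ratio of vector to control shRNA for Hk1 was -1.03 (SE 0.57). Of Hk2 the control shRNA libraries had 97.8 and 142 CPM, which overlapped the overexpression libraries. By FPKM, Hk1 was 66.6% and 58.7% of the pair in the overexpression libraries, against 27.6% and 38.1% in the vector libraries. It was 67.4% and 28.5% in the Ntoco shRNA libraries, against 63.0% and 48.4% in the control shRNA libraries, so that the low share of the vector libraries was met elsewhere only in Ntoco shRNA library 2.

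The next step, glucose phosphate isomerase (Gpi1), had 720.4 and 429 CPM in the overexpression libraries, against 285 and 396 CPM in the vector libraries (log2 ratio 0.75, SE 0.37). Of the 3 phosphofructokinase genes, the liver form Pfkl had 467 and 166 CPM in the overexpression libraries, against 152 and 149 CPM in the vector libraries (log2 ratio 1.07, SE 0.54). The muscle form Pfkm had 56.0 and 42.3 CPM in the overexpression libraries, against 19.6 and 39.6 CPM in the vector libraries (log2 ratio 0.73, SE 0.40). The platelet form Pfkp had 343 and 199 CPM in the overexpression libraries, against 133 and 215 CPM in the vector libraries, and overlapped. Pfkl and Pfkm thus stood just above the vector in library 2, and Pfkl far above it in library 1. Pfkm had 56.8 and 30.0 CPM in the Ntoco shRNA libraries, against 57.7 and 57.9 CPM in the control libraries, both lower. It was also lower in vector than in control shRNA (log2 ratio -0.97, SE 0.40).

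The regulators of this step, Pfkfb3 and Pfkfb4, make and remove fructose 2,6-bisphosphate, the activator of phosphofructokinase, and were on opposite sides. Pfkfb3 had 2.83 and 4.19 CPM in the overexpression libraries, against 6.58 and 4.48 CPM in the vector libraries (log2 ratio -0.65, SE 0.56). Pfkfb4 had 20.9 and 29.1 CPM in the overexpression libraries, against 10.1 and 19.3 CPM in the vector libraries (log2 ratio 0.77, SE 0.62). These were the 2 members in which overexpression library 2 exceeded library 1.

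Of the aldolases, which split the hexose, Aldoa had 1451 and 892 CPM in the overexpression libraries, against 751 and 769.7 CPM in the vector libraries (log2 ratio 0.62, SE 0.35). Aldoc, the brain form, had 45.2 and 14.6 CPM in the overexpression libraries, against 12.8 and 13.5 CPM in the vector libraries (log2 ratio 1.18, SE 0.58). It had 46.2 and 17.3 CPM in the Ntoco shRNA libraries, against 19.5 and 23.7 CPM in the control libraries. Its 2 high values were therefore in library 1 of both manipulated groups. Aldoa made up 96.3% to 98.7% of the FPKM of both aldolases in all 8 libraries.

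The triose enzymes come next. Tpi1, triose phosphate isomerase, had 1279 and 597 CPM in the overexpression libraries, against 448 and 508 CPM in the vector libraries (log2 ratio 0.97, SE 0.43). Pgk1, phosphoglycerate kinase (Entrez 18655, chrX:106187100-106203699), had 1903 and 989.7 CPM in the overexpression libraries, against 898 and 854 CPM in the vector libraries (log2 ratio 0.72, SE 0.30). Pgam1, phosphoglycerate mutase, had 584 and 348 CPM in the overexpression libraries, against 284 and 320.1 CPM in the vector libraries (log2 ratio 0.62, SE 0.30). In each of the 3, overexpression library 2 was above both vector libraries by less than the gap between the overexpression libraries.

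Gapdh, the dehydrogenase between these steps (Entrez 14433, chr6:125161852-125166467), had 81.3 and 52.2 CPM in the overexpression libraries, against 39.0 and 41.3 CPM in the vector libraries (log2 ratio 0.73, SE 0.27). It had 44.2 and 31.2 CPM in the Ntoco shRNA libraries, against 51.5 and 51.4 CPM in the control libraries (log2 ratio -0.45, SE 0.27). Gapdh was higher than its control without overlap in the first comparison and lower without overlap in the second, and the difference between the effects was 1.18 (SE 0.38, edgeR adjusted p 0.65). Both vector libraries were also below both control shRNA libraries (log2 ratio -0.36, SE 0.27). Overexpression library 2, at 52.2 CPM, was near the control shRNA level. Its mean deposited FPKM was only 37.7 in the overexpression and 22.5 in the vector group, against 625 and 317 for Tpi1. Gapdh and several other glycolytic genes have near-identical copies in the mouse genome, which may have taken some of their reads, so these levels are uncertain.

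Eno1, the main enolase (Entrez 13806, chr4:150236708-150248879), had the highest mean FPKM of all members in each of the 4 groups, from 468 in the Ntoco shRNA to 929.6 in the overexpression group. It had 2224 and 1581 CPM in the overexpression libraries, against 1101 and 1304 CPM in the vector libraries (log2 ratio 0.66, SE 0.25). It had 1078 and 740.1 CPM in the Ntoco shRNA libraries, against 1287 and 1202 CPM in the control libraries (log2 ratio -0.45, SE 0.25). Eno1 too was higher without overlap in the first comparison and lower without overlap in the second. Its retrotransposed copy Eno1b had 599 and 423 CPM with overexpression, against 288 and 336 CPM with the vector, and 286 and 195 CPM with the Ntoco shRNA, against 349 and 333 CPM with the control shRNA. Reads of the 2 genes may have been shared, so both values are uncertain. Eno2, the neuronal enolase, had 25.8 and 16.2 CPM in the overexpression libraries, against 14.6 and 22.8 CPM in the vector libraries, and overlapped (log2 ratio 0.17, SE 0.41).

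The last steps make pyruvate and lactate. Pkm, pyruvate kinase (Entrez 18746, chr9:59656576-59679372), had 3707 and 2818 CPM in the overexpression libraries, against 1559 and 2195 CPM in the vector libraries (log2 ratio 0.80, SE 0.35). It had 2431 and 1147 CPM in the Ntoco shRNA libraries, against 2713 and 2434 CPM in the control libraries (log2 ratio -0.52, SE 0.35). The first Ntoco shRNA library was just under the lower control and the second far below.

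Ldha, the lactate dehydrogenase subunit that favours lactate (Entrez 16828, chr7:46842274-46855627), had 2151 and 1139 CPM in the overexpression libraries, against 654 and 750.3 CPM in the vector libraries. Both libraries were well above the vector, a 2.34-fold difference (log2 ratio 1.23, SE 0.40, edgeR adjusted p 0.598, DESeq2 adjusted p 0.351). It had 901 and 424 CPM in the Ntoco shRNA libraries, against 869 and 762 CPM in the control libraries, 1 library above and 1 below. The difference between the effects was 1.53 (SE 0.56). By FPKM, Ldha made up 93.1% and 92.0% of the sum of Ldha and Ldhb in the overexpression libraries, against 93.8% and 89.4% in the vector libraries. Its share was 83.2% and 79.0% in the Ntoco shRNA libraries, against 87.5% and 82.7% in the control libraries, so that the 4 shRNA libraries lay below the other 4.

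**Figure D4:**
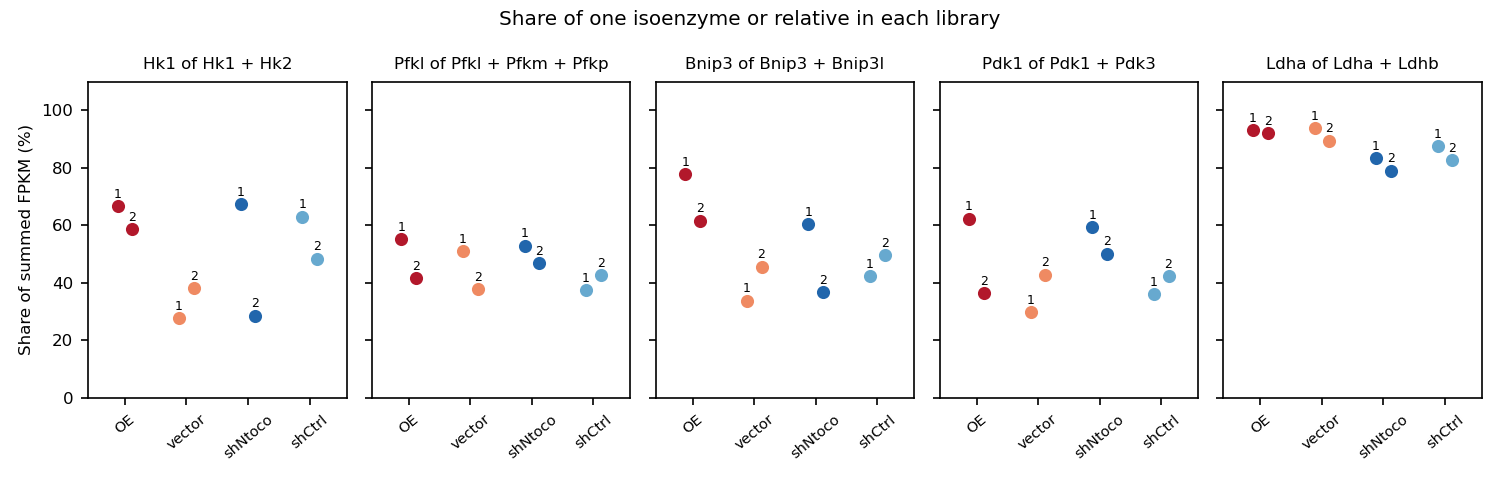
Share of 1 isoenzyme or relative in the summed deposited FPKM of its pair or trio (percent, points numbered by library), in Ntoco overexpression (OE), empty vector, Ntoco shRNA (shNtoco) and control shRNA (shCtrl) cells. Hk1 and Bnip3 hold the larger part of their pairs in both overexpression libraries and the smaller part in both vector libraries, while the share of Ldha stays between 79.0% and 93.8%.

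The collagen-modifying enzymes were positive in all 3 genes tested with overexpression (median log2 ratio 0.56). In 1 of them, Plod2, both libraries were higher without overlap (33.3%, against 24.1% of all genes). Plod2, a collagen lysyl hydroxylase, had 179 and 98.6 CPM in the overexpression libraries, against 87.4 and 94.8 CPM in the vector libraries (log2 ratio 0.61, SE 0.30). The prolyl hydroxylases P4ha1 and P4ha2 had log2 ratios of 0.46 (SE 0.32) and 0.56 (SE 0.33), with overexpression library 2 within or below the vector range. P4ha2 was lower in both Ntoco shRNA libraries, at 47.9 and 39.0 CPM, against 54.6 and 48.6 CPM in the control libraries. The collagen crosslinking oxidase Lox was nearly absent, with at most 3 counts in a library, and was not tested.

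The remaining members, of acid-base balance, chromatin and transcription, had mixed values. Ankrd37, an ankyrin repeat gene used as a HIF target (Entrez 654824, chr8:45996908-46000414), had 6.54 and 1.71 CPM in the overexpression libraries, against 0.802 and 0.721 CPM in the vector libraries (log2 ratio 2.43, SE 0.72, and 1.16 without overexpression library 1). It had 0.732 and 0.345 CPM in the Ntoco shRNA libraries, against 0.995 and 1.25 CPM in the control libraries (log2 ratio -1.05, SE 0.74). Ankrd37 was above its control without overlap in the first comparison and below without overlap in the second. These are low levels, with 7 to 24 counts in the libraries other than overexpression, so counting error is large. The difference between the effects was 3.48 (SE 1.03, edgeR adjusted p 0.65). Both vector libraries were also below both control shRNA libraries (log2 ratio -0.55, SE 0.72).

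Car9, the carbonic anhydrase that acidifies the outside of hypoxic cells, had 128 and 25.4 CPM in the overexpression libraries, against 54.7 and 29.9 CPM in the vector libraries. It had 70.7 and 13.3 CPM in the Ntoco shRNA libraries, against 8.59 and 26.7 CPM in the control libraries. The spread within groups exceeded the difference in both comparisons, and the log2 ratio for overexpression, 0.86 (SE 0.94), was -0.73 without overexpression library 1. The differentiation-linked gene Ndrg1 had 554 and 166 CPM in the overexpression libraries, against 234 and 222 CPM in the vector libraries. Its control shRNA libraries, at 95.4 and 337 CPM, were further apart than its Ntoco shRNA libraries, at 218 and 286 CPM.

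Of the others, the mTORC1 inhibitor Ddit4 had a log2 ratio of -0.17 (SE 0.48) for overexpression and the histone demethylase Kdm3a one of -0.27 (SE 0.32). The MYC antagonist Mxi1 had 0.48 (SE 0.33) and the repressor Bhlhe40 0.21 (SE 0.40). All 4 overlapped between the overexpression and vector libraries, and with the Ntoco shRNA their log2 ratios lay between -0.15 and 0.13.

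The HIF pathway's own subunits and sensors had mixed values. Of 13 genes, 11 were tested, 0 passed in either comparison, and the median log2 ratio was -0.12 with overexpression and -0.02 with the Ntoco shRNA. Hif1a, the oxygen-regulated subunit, had 509 and 351 CPM in the overexpression libraries, against 414 and 519 CPM in the vector libraries (log2 ratio -0.12, SE 0.25). It had 459 and 562 CPM in the Ntoco shRNA libraries, against 317 and 414 CPM in the control libraries, both higher (log2 ratio 0.48, SE 0.25). Its relatives Epas1 and Hif3a were near 0 in all libraries.

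Egln3, the hydroxylase that is itself a HIF target, had 136 and 24.9 CPM in the overexpression libraries, against 10.1 and 10.6 CPM in the vector libraries (log2 ratio 2.96, SE 1.12). It had 90.3 and 7.15 CPM in the Ntoco shRNA libraries, against 14.3 and 20.0 CPM in the control libraries. Egln3 thus shared with Bnip3 its highest value in overexpression library 1 and its next in Ntoco shRNA library 1. The coactivators Ep300 and Crebbp were lower in both overexpression libraries than in the vector, with log2 ratios of -0.997 (SE 0.25) and -1.09 (SE 0.38). Ep300 had 41.3 and 62.2 CPM with overexpression, 108 and 98.9 CPM with the vector, and 63.1 and 78.8 CPM with the control shRNA. Crebbp had 10.7 and 20.7, 37.3 and 29.6, and 20.9 and 28.3 CPM in the same order. For both genes the vector libraries were above both control shRNA libraries (log2 ratios 0.54, SE 0.24, and 0.44, SE 0.38). Vhl, which marks HIF for destruction, had 39.7 and 64.7 CPM in the Ntoco shRNA libraries, against 26.9 and 27.7 CPM in the control libraries (log2 ratio 0.94, SE 0.28). It had 54.5 and 40.9 CPM in the overexpression libraries, against 60.6 and 51.0 CPM in the vector libraries, so the control shRNA libraries were below the other 6. Arnt2 had a log2 ratio of -0.76 (SE 0.69) with the Ntoco shRNA.

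Of 41 other hypoxia-inducible genes, 34 were tested and 0 passed. With overexpression 23 of the 34 were positive, a smaller share than among the members (67.6% against 84.6%, a difference not tested), with a median of 0.22. Both libraries were higher in 8 (23.5%, against 24.1% of all genes) and lower in 4 (11.8%, against 23.1%). The members and this list were chosen with earlier results of these data known, so the shares only describe the lists. The largest log2 ratios were those of Egln3, the matrix oxidase Loxl2 (1.36, SE 0.86) and Zfp395 (1.14, SE 0.55). With the Ntoco shRNA the median was 0.15, 6 were higher in both libraries (17.6%, against 15.1% of all genes) and 5 lower (14.7%, against 14.1%), and the log2 ratio of the immediate early gene Fos was -1.29 (SE 1.08).

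With overexpression, neighbouring metabolic pathways had medians below the 0.69 of the members. These lists too were chosen with earlier results known, and the differences from the members were not tested. Of the 25 other glycolysis and glucose uptake genes, 14 were tested, with a median log2 ratio of 0.52 for overexpression and -0.17 for the shRNA. The largest for overexpression were Slc2a4 (2.50, SE 1.20, under 1 CPM in all libraries), Pfkfb1 (1.19, SE 0.52) and Ldhb (0.96, SE 0.41). For the shRNA they were Pgam5 (-0.89, SE 0.21), Hk3 (0.65, SE 0.65) and Adpgk (-0.58, SE 0.24). All 8 genes of the pentose phosphate pathway, which makes NADPH and ribose, were positive with overexpression (median 0.26), 6 of them higher without overlap (75%, against 24.1% of all genes), led by Pgd (1.07, SE 0.39), H6pd (0.71, SE 0.42) and G6pdx (0.67, SE 0.28). With the shRNA 7 of the 8 were negative (median -0.03) and all 8 overlapped, the largest being Pgd (-0.54, SE 0.39), G6pdx (-0.34, SE 0.28) and Rpe (0.20, SE 0.18).

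In the tricarboxylic acid cycle 19 of 22 genes were positive with overexpression (median 0.26), with 10 higher without overlap (45.5%, against 24.1% of all genes) and 1 lower (4.55%, against 23.1%), the largest being Idh1 (1.82, SE 0.73), Me2 (0.72, SE 0.24) and Mdh1 (0.68, SE 0.28). Idh1, the cytosolic isocitrate dehydrogenase, had 125 and 91.9 CPM in the overexpression libraries, against 13.4 and 48.0 CPM in the vector libraries. The control shRNA libraries held 111 and 101 CPM, so that the vector was the lower of the 2 controls. With the Ntoco shRNA 15 of the 22 were negative (median -0.10), with 7 lower without overlap (31.8%, against 14.1% of all genes) and 1 higher (4.55%, against 15.1%), the largest being Cs (-0.73, SE 0.27), Idh3a (-0.56, SE 0.19) and Ogdh (-0.40, SE 0.20). Of 17 genes of pyruvate entry and lactate transport, 15 were tested, with medians of 0.09 and -0.05. The largest were Pdk4 (-1.01, SE 0.55), Bsg (0.39, SE 0.19) and Pdp1 (0.29, SE 0.25) for overexpression, and Pdhb (-0.90, SE 0.20), Pdp1 (0.41, SE 0.26) and Pdk4 (0.41, SE 0.55) for the shRNA. In all of these lists 0 genes passed the test.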

How the data were processed

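TRIzol was used for total RNA and a stranded mRNA kit for the libraries, per the labels' protocols. The authors deposited whole-number read counts per gene and FPKM (per kilobase of gene and per library total). HISAT2, HTSeq, Cufflinks, Trimmomatic, DESeq and the build mm10 (GRCm38) are named in the submitters' processing notes. Annotation and strand setting were not given in the sources used here, so reads of genes overlapping on opposite strands cannot be told apart. Column names gave each column's group (0 sample columns were unused). The titles number the cells HT22 to HT25 and the cell line label is HT22 throughout.

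Counts were filtered with filterByExpr (minimum count 10) and TMM-scaled, and tested with edgeR 4.0.16 (quasi-likelihood F-test, R 4.3.3) in 1 model of 8 libraries (4 residual degrees of freedom, biological coefficient of variation 28.0%). The filter was passed by 39 members, 37 with at least 10 counts in all libraries. Benjamini-Hochberg adjustment ran over 12115 genes, threshold 0.05. The SE is that of the log2 ratio, computed as its size over the square root of F. CPM are TMM-scaled. At this depth the spread between libraries, not counting error, sets the precision for genes with many counts. Counting error also weighs on members with few counts, such as Ankrd37 and Slc16a3. Partner libraries differed with a chi-square per gene of 62.1 to 156, so they were used as separate libraries. Alternatives were DESeq2 1.42.0, RLE scaling, no filter, only the groups compared, a replicate block and leaving out each library. The script was tested on simulated counts. Gene coordinates and promoters are RefSeq's (GRCm38.p6), 1-based. The members and lists were chosen with earlier results of these data known. All members are named, and of each other list the 3 genes with the largest absolute log2 ratio in either comparison, with Egln3 and Hif1a, except 1 gene that is not reported here. Genes named by an unadjusted p or by non-overlap beyond these were chosen after their values were seen.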

Additional observations from a re-analysis of the deposited data

How the results depend on the processing

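The count of members passing the test was 0 under RLE scaling, no filter, and leaving out any library, for all comparisons, with only the groups compared for the 3 comparisons of groups (a fit not run for the difference of effects), and 1 (Angptl4, knockdown) with DESeq2. The members' median log2 ratio ranged over the fits that leave out 1 library from 0.19 to 0.98 for overexpression, from -0.43 to 0.16 for knockdown and from 0.24 to 1.11 for the difference of the effects. The count of members above both controls ranged from 22 to 33 for overexpression, from 3 to 21 for knockdown and from 7 to 12 for the vector comparison. The count below ranged from 3 to 8, from 6 to 25 and from 13 to 23. With 1 library in a group more genes meet this condition, 33.2% to 41.2% of all genes above and 32% to 40.1% below for overexpression, 26.1% to 38.5% and 26.9% to 39.3% for knockdown, and 34.6% to 39.6% and 37.2% to 41.2% for the vector comparison, so these counts are not comparable with those from all libraries. Leaving out a library leaves its group with 1, assumed to vary like the others. For overexpression, single members' signs changed in 4 of 39 without overexpression library 1 and in 2 without library 2. They changed in 4 without vector library 1 and in 1 without vector library 2. For knockdown, signs changed in 11 without Ntoco shRNA library 1 and in 15 without library 2. They changed in 4 without control shRNA library 1 and in 8 without control shRNA library 2. The cause was not tested. Same-numbered libraries had correlations of their deviations between -0.37 and 0.36, so the numbers were not taken to pair libraries. With a replicate block 0 members were called and the overexpression median was 0.64. Over all genes DESeq2 called 1 for overexpression, 15 for knockdown, 281 for the vector comparison and 14 for the difference of effects. EdgeR called 25 for overexpression without overexpression library 2 and 1 with only 2 groups in the model, and 1 each for knockdown and for the difference without Ntoco shRNA library 1. In the vector comparison it called 128 with only 2 groups, 3 with no filter, and 97 and 96 without overexpression library 1 or 2. None of these edgeR calls was a member.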
